A study of Rattus norvegicus with 2 samples.

Results

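The circadian clock genes described here are Dbp, Tef, Hlf, Per1, Per2, Per3, Nr1d1, Nr1d2, Arntl and Ciart, which are 10 of the 32883 genes in the expression matrices of the rat hypothalamus. They were chosen by name, with earlier results of these data known, and each was read in every barcode with at least 200 detected genes. Single-cell RNA sequencing was performed on hypothalamic tissue of female Sprague Dawley rats at postnatal day (PND) 29. The tissue contained the anteroventral periventricular and arcuate areas and was dissociated with collagenase, and transcripts were counted as unique molecular identifiers (UMIs) with a 3′ droplet kit. The Control library is labelled intact, and the study's methods give its rats a silicone capsule with oil only. The SC300 library came from rats that received on PND 0.5 a silicone capsule with 300 µg of the estrogen estradiol benzoate. Each library was 1 pool of tissue from 3 rats kept in 12 h of light and 12 h of dark, and the time of day at collection was not given in the sources used here. With 1 library per group there is no replicate check and no test. The implant, the pool of rats and the time of collection therefore cannot be told apart, and every interval below is a 95% interval that covers counting error only.

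The circadian clock is a feedback loop of transcription factors that runs in most cells with a period of about a day. CLOCK and BMAL1, the product of Arntl, activate genes with E-box elements, and the PER proteins, the CRY proteins and CIART repress that activity. The nuclear receptors REV-ERBα (Nr1d1) and REV-ERBβ (Nr1d2) repress Arntl in turn, while DBP, TEF and HLF are PAR bZIP factors that carry the rhythm to output genes through D-box elements. Transcripts of Arntl usually peak in the opposite phase to those of Dbp, and tanycytes and ependymal cells are the glial cells that line the third ventricle beside the arcuate nucleus.

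The 200-gene minimum left 4296 Control and 4379 SC300 barcodes, with 51382276 and 56390355 UMIs and medians of 7986 and 8182 UMIs per cell. Cells were assigned to 12 classes from lists of marker genes, and 500 Control and 493 SC300 cells stayed unassigned. Each class is called by the name of its list with "-like". The classes held 1258 and 1399 astrocyte-like cells, 231 and 136 tanycyte-like cells, 89 and 64 ependymal-like cells and 419 and 393 neuron-like cells (Control and SC300). Oligodendrocyte precursor-like, mature oligodendrocyte-like, microglia-like, endothelial-like and mural-like classes held between 173 and 483 cells per library. The newly formed oligodendrocyte-like class held 111 and 100 cells, and the macrophage-like and stromal-like classes held 11 to 34. The tanycyte-like class was led by Crym, with 8539 and 9649 UMIs, and by Frzb and Lhx2, but the defining tanycyte gene Rax had only 17 and 18 UMIs, and Gpr50 and Col23a1 had 2 or fewer. The libraries had 9 barcodes in common, which 14 of the kept cells carried, and without these cells the Dbp ratio of tanycyte-like cells and the number of pairs past the threshold were the same.

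All 10 genes were detected, and they fell into a group that was well counted and a group that was not. Per3, Dbp, Tef, Nr1d1 and Nr1d2 each had between 2752 and 9299 UMIs in each library. Arntl had 798 and 784 UMIs, Per2 579 and 467, Ciart 270 and 223, Per1 83 and 59, and Hlf 35 and 37. Few of these UMIs lay in barcodes of another kind: in those with over 90% haemoglobin UMIs, which mark red cells, Dbp had 2 UMIs in 59 Control barcodes and 1 UMI in 42 SC300 barcodes, and Per3 had 0 in both. The median depth of these barcodes was 15295 and 15561 UMIs, most of them haemoglobin. In all kept barcodes with a majority of haemoglobin UMIs, Dbp had 29 UMIs in 87 Control and 24 UMIs in 61 SC300 barcodes. Per3 had 17 and 11 UMIs there. Nr1d1 overlaps Thra on the opposite strand. The study's methods give default alignment parameters and do not name the strand of the counting, so the UMIs of Nr1d1 are uncertain to that extent.

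The sequences just upstream of these genes are shown because the loop described above is written in short elements near their starts. Windows of 250 bases before the annotated start were taken from RefSeq, build GRCr8. A window was found for 9 of the 10 genes, with Arntl listed there as Bmal1 and Nr1d1 having 2 windows, and no window was found for Hlf. Both strands were searched for the E-box CACGTG, the noncanonical E-box CACGTT, the D-box TTATGNAA and the REV-ERB and ROR element TAGGTNA. These motifs do not overlap one another in the windows printed here, and capitals mark the matches. In all 33469 windows of this length the E-box was present in 5.59%, the noncanonical E-box in 4.07%, the D-box in 3.28% and the REV-ERB and ROR element in 7.55%.

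The window of Ciart lies at chr2:186112247-186112496 on the minus strand, that of Tef at chr7:115206577-115206826 on the plus strand, and the second window of Nr1d1 at chr10:84229455-84229704 on the minus strand. The window of Arntl lies at chr1:176766078-176766327 and that of Dbp at chr1:105312006-105312255, both on the plus strand. All are printed 5′ to 3′ along the gene.
Ciart: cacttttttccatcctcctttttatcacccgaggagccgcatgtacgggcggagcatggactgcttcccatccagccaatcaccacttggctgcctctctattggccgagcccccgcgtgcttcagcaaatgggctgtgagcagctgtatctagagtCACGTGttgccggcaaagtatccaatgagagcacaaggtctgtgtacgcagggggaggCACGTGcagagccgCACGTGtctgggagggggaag
Tef: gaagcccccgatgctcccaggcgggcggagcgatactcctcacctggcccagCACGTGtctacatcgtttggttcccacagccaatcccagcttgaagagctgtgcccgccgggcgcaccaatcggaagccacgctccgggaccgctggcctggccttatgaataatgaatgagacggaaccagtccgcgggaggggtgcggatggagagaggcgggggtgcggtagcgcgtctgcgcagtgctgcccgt
Nr1d1: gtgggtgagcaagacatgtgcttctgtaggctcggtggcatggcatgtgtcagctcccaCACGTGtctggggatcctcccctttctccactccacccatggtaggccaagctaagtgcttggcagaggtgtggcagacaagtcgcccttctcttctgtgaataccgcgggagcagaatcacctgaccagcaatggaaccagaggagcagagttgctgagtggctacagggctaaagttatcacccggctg
Arntl: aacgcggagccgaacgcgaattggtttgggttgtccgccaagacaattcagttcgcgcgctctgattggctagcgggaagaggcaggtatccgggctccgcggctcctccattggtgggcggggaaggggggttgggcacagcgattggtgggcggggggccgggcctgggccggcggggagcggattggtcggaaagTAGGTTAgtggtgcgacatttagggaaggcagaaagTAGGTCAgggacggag
Dbp: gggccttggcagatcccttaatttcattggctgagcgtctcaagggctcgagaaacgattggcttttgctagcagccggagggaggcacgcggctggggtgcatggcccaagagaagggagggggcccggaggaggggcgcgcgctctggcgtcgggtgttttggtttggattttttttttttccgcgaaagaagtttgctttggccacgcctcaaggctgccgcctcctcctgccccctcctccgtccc

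Ciart held 3 E-boxes, beginning at −93, −35 and −21 bases from the start. Tef held 1 E-box at −198, and the second window of Nr1d1 held 1 at −191. Arntl, the gene that the REV-ERB receptors repress, held REV-ERB and ROR elements at −52 and −16. Of the windows not printed, Per2 held a noncanonical E-box at −62 and a D-box at −192, and the first window of Nr1d1 held a noncanonical E-box at −174. The windows of Dbp, Per1, Per3 and Nr1d2 held none of the 4 motifs, which says only that these letters are not in these windows. A match is a description of the letters and not a binding site.

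Levels are given as CPM, the UMIs of a gene within a class per 1000000 UMIs of that class, with an exact Poisson interval. Among the PAR bZIP output factors, Dbp was highest in astrocyte-like cells of the Control library, at 481 CPM (467 to 494). Tanycyte-like cells followed at 283 CPM (264 to 303), then mural-like cells at 188 CPM (172 to 205) and neuron-like cells at 152 CPM (145 to 160). The intervals of these 4 classes did not overlap one another. The neuron-like interval overlapped that of the next class, stromal-like cells, which had 14 UMIs. In the mural-like class the endothelial marker list summed to 9162 CPM in Control and 9081 CPM in SC300. The mural list summed to 5094 and 5359 CPM there, so values of this class, here and below, are not of mural RNA alone. Microglia-like cells were lowest at 24.98 CPM (20.01 to 30.8). Astrocyte-like cells held 51.6% of the Dbp UMIs of the Control library and 58.5% of those of the SC300 library.

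Tef followed the same order at the top, with 125 CPM (119 to 133) in astrocyte-like cells and 78.6 CPM (68.7 to 89.6) in tanycyte-like cells of the Control library. Neuron-like cells at 63.6 CPM, ependymal-like cells at 58.4 CPM and oligodendrocyte precursor-like cells at 53.1 CPM had overlapping intervals. Microglia-like cells were again lowest at 7.75 CPM (5.11 to 11.3). Hlf was near the limit of detection, at 0.681 CPM in all Control cells and 0.656 CPM in all SC300 cells. It had at most 15 UMIs in any class of either library, and no class passed 50 UMIs over both.

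**Figure D1:**
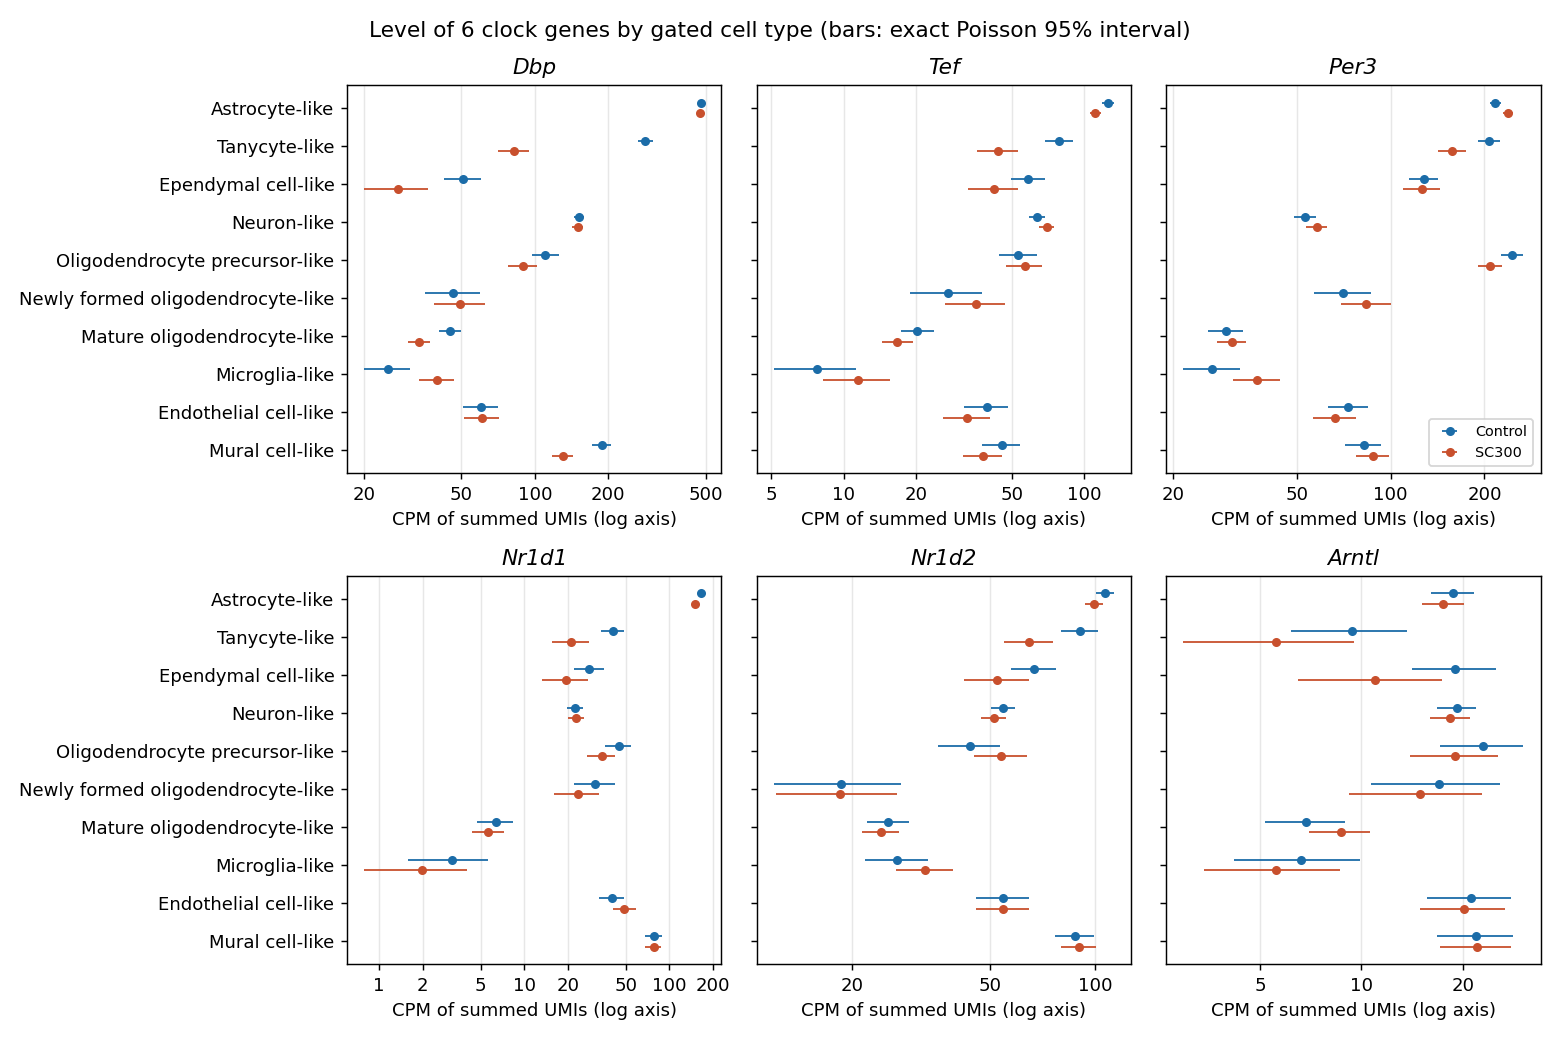
Level of 6 clock genes in 10 gated cell classes of the Control (blue) and SC300 (red) libraries, as CPM of summed UMIs on log axes; bars are exact Poisson 95% intervals. Dbp in tanycyte-like cells stands at 283 CPM in Control and 82.2 CPM in SC300, while the 2 libraries overlap at 481 and 474 CPM in astrocyte-like cells.

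Of the period genes, Per3 was highest in 3 of the glial classes. Oligodendrocyte precursor-like cells of the Control library had 245 CPM (225 to 267), astrocyte-like cells 217 CPM (208 to 226) and tanycyte-like cells 207 CPM (190 to 224). Neighbours in this order overlapped in their intervals. Ependymal-like cells had 128 CPM (114 to 142) and neuron-like cells 53.1 CPM (49.0 to 57.5). Mature oligodendrocyte-like cells at 29.6 CPM (26.0 to 33.6) and microglia-like cells at 26.7 CPM (21.5 to 32.7) were below neuron-like cells. Per2 was similar in astrocyte-like cells (20.9 CPM, 18.2 to 24.0), neuron-like cells (17.9 CPM, 15.5 to 20.5) and ependymal-like cells (17.5 CPM, 12.8 to 23.3), which do not differ beyond these intervals. It was at 0.125 CPM, from 1 UMI, in mature oligodendrocyte-like cells. Per1, which in many cells is also induced quickly by stimuli, was sparse everywhere, with at most 16 UMIs in any class of either library.

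The REV-ERB genes were not distributed alike. Nr1d1 was highest in astrocyte-like cells at 166 CPM (158 to 174), followed by mural-like cells at 77.8 CPM (67.7 to 88.9) in the Control library, and these intervals did not overlap. In tanycyte-like cells it was at 40.7 CPM (33.7 to 48.8). Nr1d2 had no such peak: astrocyte-like cells had 107 CPM (101 to 113), tanycyte-like cells 90.4 CPM (79.8 to 102) and mural-like cells 87.6 CPM (76.9 to 99.4), with overlapping neighbours. Both were low in mature oligodendrocyte-like cells, at 6.37 CPM for Nr1d1 and 25.4 CPM for Nr1d2.

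Arntl, the activator of the loop, was flat by comparison. In the Control library it lay at 18.6 CPM in astrocyte-like cells, 19.1 CPM in neuron-like cells, 19.0 CPM in ependymal-like cells, 21.0 CPM in endothelial-like cells, 21.9 CPM in mural-like cells and 23.0 CPM in oligodendrocyte precursor-like cells. Those classes did not differ beyond their intervals. Tanycyte-like cells (9.39 CPM, 6.19 to 13.7), mature oligodendrocyte-like cells (6.87 CPM, 5.18 to 8.94) and microglia-like cells (6.60 CPM, 4.19 to 9.91) were lower. The repressor Ciart was at 13.2 CPM (9.35 to 18.1) in tanycyte-like cells and 13.1 CPM (7.64 to 21.0) in newly formed oligodendrocyte-like cells, against 7.91 CPM (6.26 to 9.86) in astrocyte-like cells. Those 3 intervals overlapped.

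The comparison of the SC300 library with the Control library asks whether the neonatal estradiol implant goes with another level of clock genes at PND 29 in any cell class. The clock genes were furthest apart in tanycyte-like cells. In tanycyte-like cells Dbp was 3.45-fold lower in the SC300 library, Nr1d1 1.94-fold lower and Tef 1.80-fold lower. In astrocyte-like cells, the class with the highest Dbp, the same gene had a log2 ratio of −0.02. Ratios are given as log2 of SC300 CPM over Control CPM with an exact binomial interval, and a gene counts as past the threshold with at least 50 UMIs over both libraries, a ratio past 1.5-fold and an interval away from 0.

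Over the 12 classes, 65 pairs of a clock gene and a class had 50 UMIs, and 5 of them passed the threshold. That share is close to the background: 5.87% of all pairs of a gene and a class passed it in either direction. The 5 pairs were Dbp, Tef and Nr1d1 in tanycyte-like cells and Dbp in ependymal-like cells, all lower in the SC300 library, and Dbp in microglia-like cells, which was higher. In tanycyte-like cells 3 of the 5 clock genes with 50 UMIs passed in the lower direction and none in the higher, against 6.57% of all 7766 genes in the lower direction. All 5 had intervals below 0, against 14.1% of all genes. The median log2 ratio of the 5 was −0.85, beside −0.04 over all genes of that class. Because the clock genes were chosen with earlier results of these data known, these shares describe the list and test nothing. The shares over all genes also include genes with as few as 50 UMIs, whose intervals are wider.

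The Dbp values of tanycyte-like cells rest on 814 UMIs in 231 Control cells and 192 UMIs in 136 SC300 cells. They correspond to 283 CPM (264 to 303) and 82.2 CPM (71.0 to 94.7), and a log2 ratio of −1.78 (−2.02 to −1.56). Control tanycyte-like cells were second to astrocyte-like cells in Dbp, and SC300 tanycyte-like cells were seventh of the 12 classes. The cells had medians of 10701 UMIs in Control and 11560.5 UMIs in SC300, and median mitochondrial shares of 13.4% and 13.3%. The class totals were 2874847 and 2336180 UMIs, and deep cells weigh more in summed UMIs. With every cell weighted alike the log2 ratio was −1.90. The part of depth in the difference was not tested.

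The difference was spread over cells. A Dbp UMI was present in 192 of 231 Control cells (83.1%) and in 80 of 136 SC300 cells (58.8%). With each cell thinned to 2000 UMIs, the shares were 39.4% (33.0 to 46.1, exact Clopper-Pearson) of 226 cells and 11.1% (6.35 to 17.7) of 135 cells, leaving out 5 and 1 shallower cells. The same thinned shares in astrocyte-like cells were 59.4% and 57.7%, and in microglia-like cells, the class with the lowest Control level, 6.12% and 6.88%. Per 10000 UMIs, the median tanycyte-like cell had 2.46 Dbp UMIs in Control and 0.656 in SC300. The upper quartile of SC300 cells, 1.19, was near the lower quartile of Control cells, 1.16. In the SC300 library 1 cell held 24 of the 192 UMIs, and without the 3 cells with the most Dbp UMIs in each library the log2 ratio was −1.92.

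**Figure D2:**
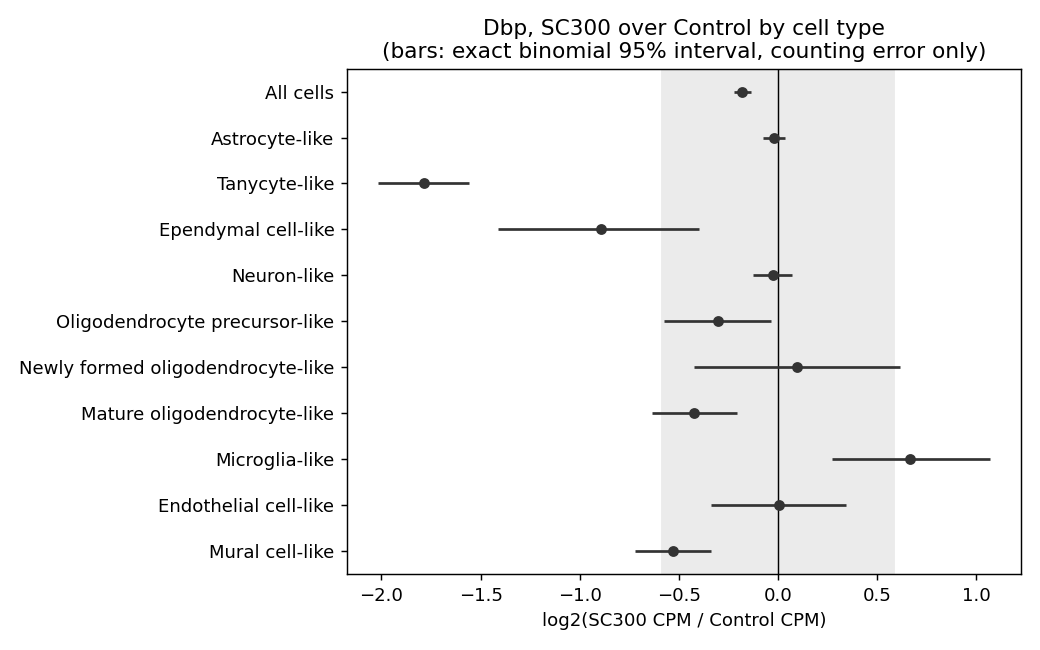
Dbp, log2 ratio of SC300 over Control CPM in all cells and in 10 gated cell classes; bars are exact binomial 95% intervals and the grey band marks ratios within 1.5-fold. The tanycyte-like point at −1.78 and the ependymal-like point at −0.89 lie left of the band, the microglia-like point at 0.67 lies right of it, and the remaining points lie inside.

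Tef, the closest relative of Dbp among the well counted genes, had 226 and 102 UMIs in tanycyte-like cells, which is 78.6 CPM (68.7 to 89.6) in Control and 43.7 CPM (35.6 to 53.0) in SC300. The log2 ratio was −0.85 (−1.20 to −0.50). Nr1d1 had 117 and 49 UMIs, 40.7 CPM (33.7 to 48.8) and 21.0 CPM (15.5 to 27.7), with a log2 ratio of −0.96 (−1.47 to −0.46). For both genes the intervals of the 2 libraries did not overlap. In the tanycyte-like cells left with under 10% mitochondrial UMIs, neither passed the threshold, at −0.70 for Tef and −0.46 for Nr1d1. With each cell thinned to 2000 UMIs, Nr1d1 kept 21 and 3 UMIs, under the minimum of 50, and was not counted, at a ratio of −2.06 (−4.45 to −0.32).

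Nr1d2 and Per3 were lower by smaller amounts. Nr1d2 had 90.4 CPM (79.8 to 102) in Control and 64.6 CPM (54.7 to 75.8) in SC300, a log2 ratio of −0.48 (−0.78 to −0.19). Per3 had 207 CPM (190 to 224) and 158 CPM (142 to 174), a log2 ratio of −0.39 (−0.58 to −0.20). The intervals of both ratios lay wholly above that of Dbp. In cells thinned to 2000 UMIs the Per3 ratio was −0.83 (−1.40 to −0.29), which passed the threshold.

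The other 5 genes had under 50 UMIs in tanycyte-like cells and were not counted. Ciart, the gene with 3 E-boxes in the window printed above, had 38 UMIs in Control and 5 in SC300, which is 13.2 CPM (9.35 to 18.1) and 2.14 CPM (0.695 to 4.99), a log2 ratio of −2.63 (−4.33 to −1.28). It passed with a minimum of 20 UMIs in place of 50. Arntl had 27 and 13 UMIs in tanycyte-like cells, with a log2 ratio of −0.76 (−1.83 to 0.25). Per2 had 25 and 18 UMIs with a log2 ratio of −0.17 (−1.13 to 0.76), Per1 9 and 4 UMIs, and Hlf 4 and 2 UMIs. For these 3 genes a difference was not detectable at this depth.

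**Figure D3:**
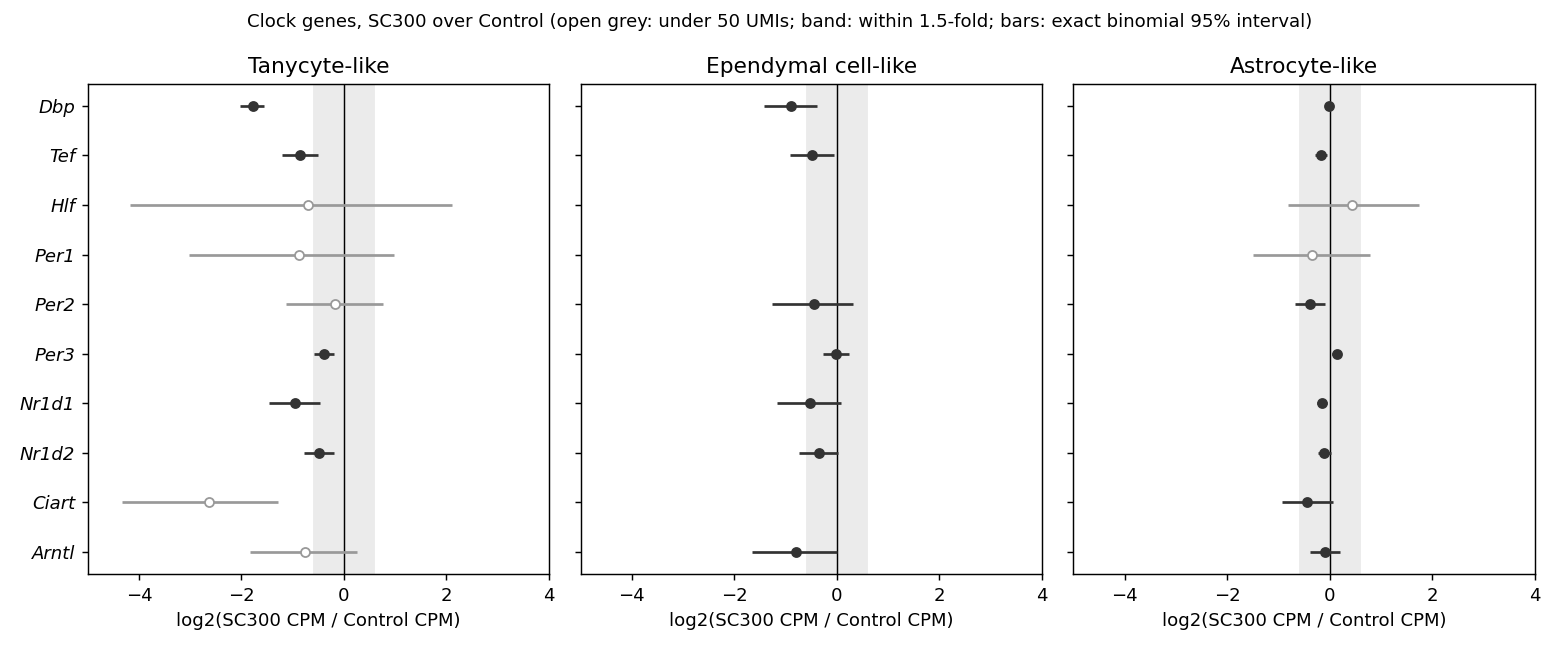
The 10 clock genes in tanycyte-like, ependymal-like and astrocyte-like cells as log2 ratio of SC300 over Control CPM; bars are exact binomial 95% intervals, the grey band marks ratios within 1.5-fold, and open grey points have under 50 UMIs. Of the filled points, Dbp, Tef and Nr1d1 lie left of the band in tanycyte-like cells. In ependymal-like cells Dbp at −0.89 and Arntl at −0.79, whose interval reaches 0.01, lie left of it, and in astrocyte-like cells all filled points lie within it. Some open points of tanycyte-like cells, such as Ciart, also lie left of the band. Genes with no point had 0 UMIs in a library.

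When tanycyte-like cells were thinned to 2000 UMIs, a mean of 1.24 of the 10 genes was detected per Control cell and 0.600 per SC300 cell. No clock gene at all was detected in 20.4% of Control cells, against 56.3% of SC300 cells. In astrocyte-like cells treated in the same way the means were 1.76 and 1.70, and 13.2% and 14.1% of cells had none.

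The tanycyte-like class was split in 2 ways. Frzb, a secreted WNT antagonist that marks some tanycytes, had a UMI in 98 Control and 42 SC300 cells. Dbp was at 325 and 112 CPM in the cells with a Frzb UMI, a log2 ratio of −1.54 (−1.86 to −1.24). In the 133 and 94 cells without one it was at 247 and 61.4 CPM, a log2 ratio of −2.01 (−2.37 to −1.67). Dbp was lower in the SC300 library in both subsets. Frzb is a marker of the gate and was itself lower in the SC300 library (log2 ratio −0.59), so the subsets are not matched between libraries. The part of cell make-up in the difference was not tested.

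The second split used the share that tanycyte markers had in a cell's UMIs of tanycyte and ependymal markers together. In the 71 and 36 cells with a share under 0.5, Dbp was at 221 and 50.4 CPM, a log2 ratio of −2.13 (−2.79 to −1.54). In the 160 and 100 cells with 0.5 or more it was at 308 and 91.2 CPM, a log2 ratio of −1.76 (−2.01 to −1.51). Tef had log2 ratios from −0.92 to −0.75 in the 4 subsets and Per3 from −0.50 to −0.35, all with intervals below 0. Nr1d1 ranged from −1.30 to −0.55, and its interval in the cells with a Frzb UMI (−1.31 to 0.17) held 0.

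**Figure D4:**
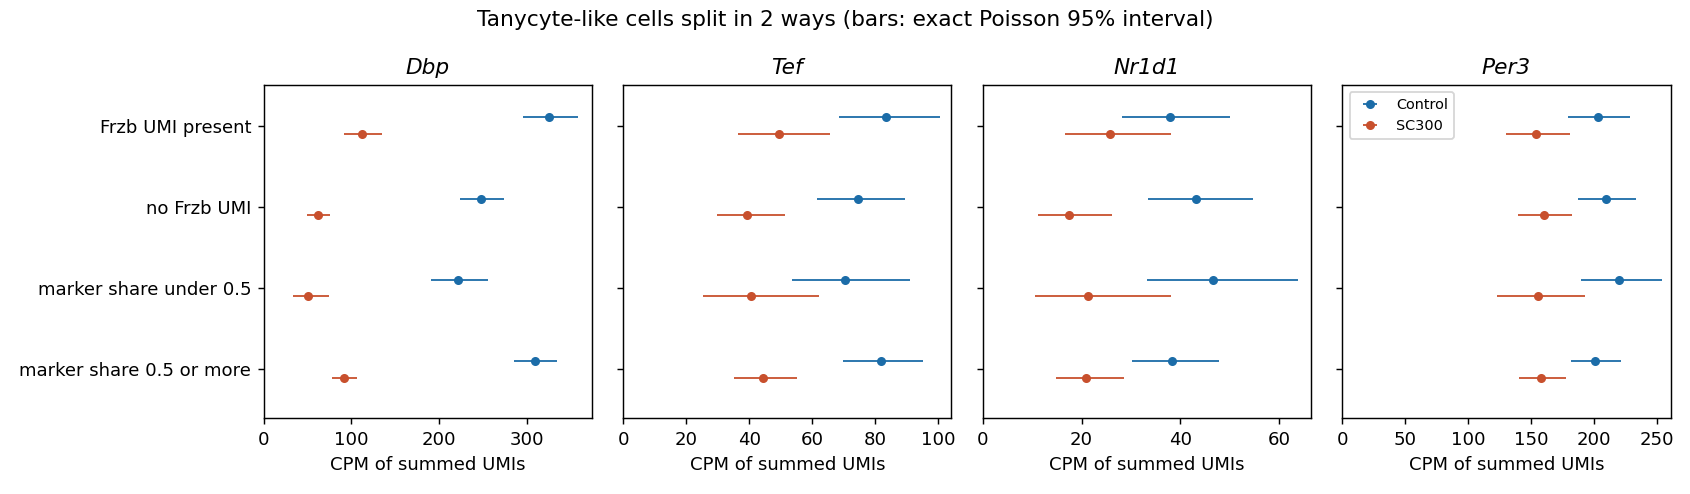
Dbp, Tef, Nr1d1 and Per3 in tanycyte-like cells with and without a Frzb UMI and with a tanycyte list share under 0.5 or of 0.5 or more, as CPM of summed UMIs for Control (blue) and SC300 (red); bars are exact Poisson 95% intervals and axes start at 0. Each SC300 point lies left of its Control point, with Dbp at 50.4 to 112 CPM in SC300 and 221 to 325 CPM in Control.

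Markers of other classes were read in the same tanycyte-like cells. The 7 genes of the astrocyte list, none of them at 0, summed to 837 CPM in Control and 838 CPM in SC300 (log2 ratio 0.00, −0.09 to 0.09), and the ependymal list to 1859 and 1900 CPM. The mature oligodendrocyte, mural and endothelial lists were low in both libraries and higher in SC300, at 18.4 to 50.1 CPM in Control and 27.8 to 75.3 CPM in SC300, with log2 ratios from 0.45 to 0.59. The lower bound of the interval was 0.26 for the mature oligodendrocyte list, 0.05 for the mural list and 0.00 for the endothelial list. Of the 7 mural markers, 1 was at 0 in Control and 4 were at 0 in SC300. Their sum was 53 and 65 UMIs, so the higher sum was not spread over the mural list. The mature oligodendrocyte and endothelial lists had no marker at 0. The neuron list summed to 170 and 125 CPM, and the 4 tanycyte markers used by the gate to 3605 and 4619 CPM, with Crym at a log2 ratio of 0.48, Lhx2 at −0.17 and Frzb at −0.59. The part of these shifts in the result was not tested. At the ratio of Dbp to astrocyte list UMIs seen in astrocyte-like cells, the astrocyte list UMIs of tanycyte-like cells would carry 7.68% of their Dbp UMIs in Control and 29.8% in SC300.

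In ependymal-like cells Dbp was also lower, with 134 UMIs in 89 Control cells and 45 UMIs in 64 SC300 cells. These are 50.9 CPM (42.6 to 60.2) and 27.4 CPM (19.98 to 36.7), a log2 ratio of −0.89 (−1.41 to −0.40). It was the only one of 7 clock genes with 50 UMIs to pass, against 3.60% of all genes lower in this class. Tef was at 58.4 and 42.0 CPM (log2 ratio −0.48, −0.91 to −0.06), Nr1d1 at 28.1 and 19.5 CPM (−0.53, −1.17 to 0.09) and Nr1d2 at 66.8 and 52.4 CPM (−0.35, −0.74 to 0.03). Arntl had 50 and 18 UMIs, with a log2 ratio of −0.79 (−1.66 to 0.01).

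Per3 differed from these, at 128 CPM (114 to 142) in Control and 126 CPM (109 to 144) in SC300 ependymal-like cells, a log2 ratio of −0.02 (−0.27 to 0.24). The mature oligodendrocyte list summed to 66.0 CPM in Control and 249 CPM in SC300 ependymal-like cells, the tanycyte list to 73.6 and 45.0 CPM and the astrocyte list to 1553 and 1650 CPM. At the ratio of astrocyte-like cells, those astrocyte list UMIs would carry 79.3% of the Dbp UMIs in Control and 176% in SC300, so the list is not a measure of astrocyte RNA alone in this class. The immediate-early list summed to 1983 and 3046 CPM (log2 ratio 0.62). Of its 8 genes with 50 UMIs, 7 had intervals above 0, against 7.88% of all genes of the class. The part of these lists in the result was not tested. The Dbp ratio of ependymal-like cells was −0.48 and no longer past 1.5-fold when clusters took the place of the marker gate. With each cell thinned to 2000 UMIs it was −1.45 (−3.93 to 0.47), from 11 and 3 UMIs, and did not pass either.

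Astrocyte-like cells, with 4800 and 5277 Dbp UMIs, gave the tightest ratios. Dbp was at 481 CPM (467 to 494) in Control and 474 CPM (462 to 487) in SC300, a log2 ratio of −0.02 (−0.08 to 0.04). Tef (−0.18, −0.29 to −0.06), Nr1d1 (−0.15, −0.25 to −0.05) and Per2 (−0.39, −0.68 to −0.09) were slightly lower, and Per3 (0.13, 0.05 to 0.22) slightly higher. Of the 8 genes with 50 UMIs none passed 1.5-fold. Of all 10223 genes with 50 UMIs in the class, 180 passed in the lower direction and 259 in the higher. The median of the 8 was −0.13 beside −0.01 over all genes of the class. The Dbp interval of astrocyte-like cells did not come near that of tanycyte-like cells, although the difference between the classes was not tested.

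In neuron-like cells the ratios were again near 0, with Dbp at −0.03 (−0.12 to 0.07), Per3 at 0.12 (−0.04 to 0.28), Nr1d1 at 0.03 and Arntl at −0.06. Per2 was the exception, at 17.9 CPM (15.5 to 20.5) in Control and 13.1 CPM (11.0 to 15.4) in SC300, a log2 ratio of −0.46 (−0.77 to −0.14), which is under 1.5-fold. Split by transmitter, GABAergic-like neurons (265 and 250 cells) had 154 and 87 Per2 UMIs, 22.0 and 13.3 CPM and a log2 ratio of −0.73 (−1.12 to −0.34). Glutamatergic-like neurons (137 and 127 cells) had 44 and 54 UMIs at a ratio of 0.15 (−0.45 to 0.76), and the difference between the subsets was not tested. Tef was at 65.7 and 84.4 CPM in glutamatergic-like neurons (0.36, 0.13 to 0.60) and had a ratio of −0.08 in GABAergic-like neurons.

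Few neurons carried several markers of the suprachiasmatic nucleus, the master clock of the brain. Its peptide genes Vip and Prok2 had 2 and 6 UMIs in Control neuron-like cells and 2 and 10 UMIs in SC300 neuron-like cells. The transcription factor genes Six6 and Lhx1, which other hypothalamic neurons also express, had 447 and 111 UMIs in Control and 385 and 58 in SC300, and the peptide gene Grp had 14 and 232 UMIs. Only 5 Control and 4 SC300 neurons held UMIs of at least 3 of 5 of its markers.

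Among the remaining classes, Dbp was lower in the SC300 library by less than 1.5-fold in mural-like cells, at 188 and 130 CPM (log2 ratio −0.53, −0.72 to −0.34). It was also lower by less than 1.5-fold in mature oligodendrocyte-like cells (−0.42, −0.64 to −0.21) and in oligodendrocyte precursor-like cells (−0.30, −0.57 to −0.03). Endothelial-like cells were level at 60.3 and 60.5 CPM. In mural-like cells the log2 ratio was near 0 for Nr1d2 (0.04), Arntl (0.00) and Per3 (0.10), and that of Tef was −0.26 (−0.63 to 0.12). The stromal-like and macrophage-like classes had too few cells, with Dbp at 14 and 50 UMIs in stromal-like cells and 5 and 35 UMIs in macrophage-like cells.

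Microglia-like cells differed in the other direction. Dbp had 87 UMIs in 483 Control cells and 142 UMIs in 469 SC300 cells, 24.98 CPM (20.01 to 30.8) and 39.7 CPM (33.4 to 46.8), a log2 ratio of 0.67 (0.27 to 1.07). Of all genes, 2.31% passed the threshold in the higher direction in this class, and Dbp was the only one of 4 clock genes with 50 UMIs that did. Per3 was at 26.7 and 37.2 CPM, a ratio of 0.48 (0.08 to 0.88). In the SC300 library 1 microglia-like cell held 23 of the 142 Dbp UMIs, and without the 3 cells with the most Dbp UMIs in each library the ratio was 0.55, under 1.5-fold. With each cell thinned to 2000 UMIs it was 0.12 (−0.68 to 0.91), from 28 and 30 UMIs. The ratio passed the threshold in 11 of 16 alternatives.

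Summed over all cells, the differences between the libraries were small. Dbp was at 181 CPM in Control and 160 CPM in SC300 (log2 ratio −0.18, −0.22 to −0.14) and Per3 at 105 and 103 CPM (−0.02, −0.08 to 0.03). Only Per1 passed 1.5-fold, with 83 UMIs in Control, 59 in SC300 and a ratio of −0.63 (−1.13 to −0.13), against 3.43% of all genes lower over all cells. Tanycyte-like cells were 5.38% of Control and 3.11% of SC300 cells, and held 8.75% and 2.13% of the Dbp UMIs.

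Other clock genes were taken from a list of 18, which covers the partners of BMAL1, the cryptochromes, the ROR receptors, the DEC factors and the kinases and ligases that turn over PER and CRY. In tanycyte-like cells 11 of them had 50 UMIs and 1 passed the threshold in the lower direction, against 6.57% of all genes of the class, a share near that background. Their median was −0.22. That gene was Rorb, a nuclear receptor that binds the same elements as the REV-ERB proteins, with 297 and 101 UMIs, 103 and 43.2 CPM and a log2 ratio of −1.26 (−1.60 to −0.93). Clock, the partner of BMAL1, was at 28.2 and 27.8 CPM (−0.02, −0.51 to 0.47) and its paralog Npas2 at 25.04 and 31.7 CPM (0.34, −0.15 to 0.83). The repressors Cry1 (−0.22) and Cry2 (−0.35) and the deubiquitinase Usp2 (−0.37) had intervals that held 0. In ependymal-like cells 10 and in astrocyte-like cells 15 of the list had 50 UMIs, and none passed. Of all 7334 genes with 50 UMIs in ependymal-like cells, 264 passed in the lower direction and 177 in the higher. For the 10223 genes of astrocyte-like cells these counts were 180 and 259. With so few genes passing, none in lists of this size says little.

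Immediate-early genes and genes induced by glucocorticoids were read in the same cells. In tanycyte-like cells the 11 immediate-early genes summed to 4472 CPM in Control and 4029 CPM in SC300 (log2 ratio −0.15). Of the 9 with 50 UMIs, Btg2 (−0.64) and Ier2 (−0.59) passed in the lower direction, where 6.57% of all genes of the class passed, and Fosb (0.73) in the higher, where 4.26% passed. Fos was at 1248 and 1336 CPM. The 7 glucocorticoid-induced genes summed to 303 and 200 CPM (−0.60), and 1 of the 3 with 50 UMIs passed in the lower direction, against the same 6.57%. This was Ddit4 at 151 and 73.6 CPM (−1.03, −1.30 to −0.77). It held 433 of the 870 Control UMIs and 172 of the 468 SC300 UMIs of the list. The intervals of the other genes with 50 UMIs, Tsc22d3 (−0.17, −0.41 to 0.07) and Fkbp5 (−0.47, −1.34 to 0.37), held 0. The glucocorticoid list was also lower in the SC300 library over all cells (−0.48). Among other classes it was at −0.53 in astrocyte-like, −0.65 in microglia-like, −0.72 in mural-like and −0.85 in endothelial-like cells. In newly formed oligodendrocyte-like cells it was at −0.10 (−0.25 to 0.04). The part of either list in the Dbp result was not tested.

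The genes most like each clock gene were sought over the 12 classes of both libraries, 24 points that share library, depth and cells, by Pearson's r of log2(CPM + 10) among 10304 genes. For Dbp they were Atp1b2 (r = 0.882), Mras (0.836) and, of the clock genes, Nr1d1 (0.810). Nr1d1 was most like Farp1 (0.918), Atp1b2 (0.906) and Sparcl1 (0.889), Tef most like Ncoa1 (0.924), Slc25a33 (0.910) and Npr2 (0.898), Per3 most like Mtmr11 (0.886), Zbtb20 (0.874) and Prrx1 (0.871), and Nr1d2 most like Ece1 (0.903), Nbl1 (0.866) and Cyp2t1 (0.842). Among the well counted genes themselves, r lay between 0.625 for Dbp with Per3 and 0.810 for Dbp with Nr1d1. Arntl stood apart from them, with r of 0.237 to Dbp, 0.398 to Nr1d1 and 0.00988 to Nr1d2. The less counted genes had as nearest Ampd2 for Per2 (0.912), Irf9 for Per1 (0.898), Josd1 for Arntl (0.802), Cers5 for Ciart (0.833) and Slc19a1 for Hlf (0.798). These are descriptions with no test, and in sparse counts such as those of Per1 and Hlf they carry little. Arntl lay between 5.54 and 33.2 CPM over the classes, so the added 10 flattens its differences. Its macrophage-like and stromal-like points rest on 3 or fewer UMIs, and its low r can come from this.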

How the data were processed

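Hypothalamic single cells of 2 rat libraries, Control and SC300, were analysed, each a pool of 3 rats. The authors deposited raw UMI counts per gene and barcode, made with Cell Ranger (version 3.0.1 in the file headers) and an Ensembl rat transcriptome. The study's methods name an aggregation step, and whether it altered these counts is not given in the sources used here. Barcodes with under 200 genes were left out here, which left 4296 of 4488 Control and 4379 of 4524 SC300 barcodes.

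Each cell was scored on marker lists, using markers with at least 500 UMIs, and took the class with at least 3 detected markers whose score, of 0.2 or more, led the next by 1.25 times. Tanycyte and ependymal lists, and mural and endothelial lists, were scored as pairs and split by the first list's share of the pair's UMIs (0.2 or more against 0.1 or less). A pair took the higher score and the higher marker number of its lists. A tanycyte-like cell could therefore meet the rule of 3 markers with ependymal markers. The marker minimum, pairs and shares were set after the data were seen. Just below that lead were 50 Control and 61 SC300 cells, and just above it 74 and 71. Scrublet marked 70 (1.63%) and 73 (1.67%) doublets, which were kept, and leaving them out was an alternative. UMIs were summed per class, CPM got exact Poisson, shares Clopper-Pearson and ratios exact conditional binomial 95% intervals. No test was possible with 1 library per group. The 10 genes and all lists were chosen with earlier results of these data known, the motifs with their sequences in view. Named genes were the 10 in each class with at least 50 UMIs, the fixed lists, and for each clock gene the 3 genes of highest r. Code was tested on simulated data and run in Python 3.11.15 with numpy 2.4.6, pandas 2.3.3, scipy 1.17.1, scanpy 1.11.5 and matplotlib 3.10.9.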

Additional observations from a re-analysis of the deposited data

Results flagged for a closer look

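The log2 ratio of Dbp, SC300 over Control, differed in sign or size between cell classes: it was −1.78 in tanycyte-like cells and −0.89 in ependymal-like cells, and 0.67 in microglia-like cells. The first 2 classes were lower and the last was higher in the SC300 library, and the difference between classes was not tested, since each group has 1 library.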

How the results depend on the processing

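No paired analysis was possible because each group has 1 library. The log2 ratio of Dbp in tanycyte-like cells stayed below 0 in all 18 alternatives. It was −2.22 in cells with under 10% mitochondrial UMIs, −2.25 in cells thinned to 2000 UMIs, −1.54 in cells with a Frzb UMI and −2.13 in cells with a tanycyte list share under 0.5, the last 2 chosen after seeing the data, as were the cells left out for shared barcodes. In cells with under 10% mitochondrial UMIs, 1 clock gene (Dbp) in place of 3 passed the threshold in the lower direction in tanycyte-like cells. Over all classes 3 pairs in place of 5 passed, and only Dbp in tanycyte-like cells was among the 5. The others were Nr1d2, higher in oligodendrocyte precursor-like cells, and Per3, lower in endothelial-like cells. The Dbp interval in these tanycyte-like cells was wider, at −3.37 to −1.23. The Tef ratio there, −0.70, was past 1.5-fold, and Tef missed the UMI minimum, the interval rule or both. With every cell weighted alike, 14 pairs were past 1.5-fold, where no interval was required. Dbp in tanycyte-like cells stayed past the threshold in 16 of 16 alternatives over all classes, Tef in 15, Nr1d1 in 14, Dbp in ependymal-like cells in 13 of 15 and Dbp in microglia-like cells in 11 of 16. For the last, it was 0.29 with clusters and 0.48 without doublets. The cause of these shifts was not tested. Some alternatives could not change these calls: the 5 pairs also met a minimum of 100 UMIs, and a UMI minimum leaves a ratio as it is. Using every deposited barcode, or leaving out shared barcodes, gave the same ratio of −1.78 for Dbp in tanycyte-like cells. The other 64 pairs gave 825 values over 13 settings, of which 775 stayed within the interval as reported and 50 moved. Most of the moves came from thinning to 2000 UMIs, with 22 of 62 values, and from under 10% mitochondrial UMIs, with 21 of 59. A change of sign was counted only in pairs past the threshold as reported, where 0 were found. It was not counted in the rest of the pairs. Scaling by the median of ratios subtracts the median log2 ratio over genes. That median was −0.04 in tanycyte-like cells, where the Dbp ratio became −1.75, and was further than 0.1 from 0 only in stromal-like cells (0.17). Depth limits Per1, Hlf and, by class, Ciart, Arntl and Per2.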

Other observations

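In the cells that no marker list claimed, 500 in Control and 493 in SC300, Dbp had 385 and 394 UMIs, 93.0 and 71.4 CPM, with a log2 ratio of −0.38 (−0.59 to −0.17).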
